A study of Mus musculus with 6 samples.

Results

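The genes described here encode the nuclear part of mitochondrial complex I, in mouse CD8 T cells that carry the wild-type label (WT, n = 3) or the label of a Ptpmt1 knockout (KO, n = 3). Members were taken by name: every row of the deposited table whose gene name starts with Nduf, leaving out names that contain -ps. This gave 49 genes of 54532 in the table. Of these, 38 are subunits or carry a subunit's name, 8 are assembly factors (Ndufaf1 to Ndufaf8), and 3 (Ndufa11b, Ndufb4c and Ndufs6b) are processed pseudogenes in the GENCODE M21 annotation. After a minimum mean of 0.5 FPKM (fragments per kilobase of gene, scaled to a depth value for each sample), 47 members were tested among 12654 genes. The 2 that did not reach it were Ndufa11b, listed at 0 in all 6 samples, and Ndufa4l2, a hypoxia-inducible relative of Ndufa4, listed at 0 in 5 samples and at 0.152 FPKM in KO replicate 3. The name filter also removed Ndufab1-ps and Ndufb1-ps.

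CD8 T cells are the T cells that kill infected or malignant cells. They were taken from spleen and lymph nodes and stimulated in culture for 3 days with beads that carry antibodies to CD3 and CD28. Both genotype groups received this stimulation, and a stranded kit for mRNA was used to build the libraries. The labels give no strain, age or sex, and do not name the allele or the cells in which it acts. They also do not say whether the replicates are separate animals. This leaves the p-values as a measure of the spread among these 6 libraries, which may be technical in part.

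Complex I is the largest enzyme of the respiratory chain. It takes electrons from NADH, passes them along a flavin and a chain of iron-sulfur clusters to ubiquinone, and pumps protons across the inner mitochondrial membrane. Its matrix arm has an N module, where NADH is oxidised, and a Q module, where ubiquinone is reduced, and its membrane arm does the pumping. Some of the membrane arm's proteins are made from mitochondrial DNA, and all other subunits are nuclear. Assembly factors build and modify the modules and are absent from the finished enzyme. Cardiolipin, the lipid whose synthesis needs the phosphatase Ptpmt1, is a constituent of the membrane in which complex I sits.

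Ptpmt1 itself had 3.75, 3.84 and 4.13 FPKM in the WT samples and 1.0004, 1.58 and 1.504 in the KO samples. The groups did not overlap (log2 fold change -1.26, SE 0.198, limma adjusted p = 0.0884; exact 2-sided permutation p = 0.1, the smallest that 3 against 3 samples allow). The CD8 T cell markers Cd8a, Cd8b1, Cd3d, Cd3e, Cd3g, Lck and Cd2 were detected in every library, at a summed 1423 to 1815 FPKM in WT and 946 to 1687 in KO. Of their log2 fold changes, 7 of 7 were below 0, where 6022 of 12654 genes tested were. In limma, 3 of them (Cd8a, Cd3e and Cd2) were lower at an unadjusted p under 0.05, against 10.2% of all genes. Their adjusted p was 0.149, 0.161 and 0.213. Every KO sample was below WT for these 3 markers, against 13.3% of all genes. Cd4 and Foxp3 summed to at most 2.02 FPKM, and the natural killer markers Ncr1 and Klrb1c to at most 1.68. Summed B cell markers lay at 18.6 to 25.02 FPKM in WT and 13.4 to 15.04 in KO, myeloid markers at 4.20 to 5.96 and 1.51 to 6.77, neutrophil markers at 1.01 to 4.67 and 0.0774 to 4.59, and erythroid and platelet markers at 3.69 to 13.0 and 6.56 to 10.9. Ms4a1 was at 0 in KO replicate 1, Csf1r in WT replicates 1 and 3 and KO replicate 2, and Ncr1 in WT replicate 1 and KO replicates 1 and 2. The gamma-delta T cell gene Trdc had 22.2 FPKM in KO replicate 3 against 1.51 to 7.90 in the other 5 libraries. Whole reads rebuilt from the FPKM summed to 14932604 to 16819913 per sample. The KO libraries differed from each other as whole libraries: mitochondrial genes took 4.40%, 7.53% and 2.38% of reads in KO replicates 1 to 3, against 3.38% to 4.765% in WT. KO replicate 3 also had 0 reads of Xist and 1837 of the Y-linked Ddx3y, whereas the other 5 libraries had at least 3513 and 0. By these reads KO replicate 3 was male and the other 5 libraries female, so the KO libraries were not all from the same animal. The KO group thus mixes the sexes, and every fit without KO replicate 3 compared female libraries only. The part of sex in the results was not tested. In bulk RNA, a change in the number of cells of a type and a change in RNA per cell cannot be told apart.

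The 4 members with the smallest p in the comparison of KO with WT are shown first by their promoters. They were picked by p in these same data. All 4 were above WT in every KO sample, as were 8 of the 47 tested members (17.0%), close to the 14.5% of all genes. Each window runs from 150 bases before to 30 bases after the RefSeq transcript start (build GRCm38.p6) and is read 5′ to 3′ on the gene's strand. Capitals mark the letters CGCATGCGC of the NRF1 motif on either strand. NRF1, nuclear respiratory factor 1, is a transcription factor known to bind promoters of respiratory chain genes. The windows lie at chr4:24897933-24898112 (plus strand) for Ndufaf4, chr10:94198885-94199064 (plus) for Ndufa12, chr13:108158596-108158775 (minus) for Ndufaf2 and chr2:140170496-140170675 (plus) for Ndufaf5.
Ndufaf4: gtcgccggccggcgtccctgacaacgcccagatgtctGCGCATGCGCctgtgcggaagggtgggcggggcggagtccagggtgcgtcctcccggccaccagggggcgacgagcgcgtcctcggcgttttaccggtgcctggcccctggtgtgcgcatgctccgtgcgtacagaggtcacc
Ndufaf5: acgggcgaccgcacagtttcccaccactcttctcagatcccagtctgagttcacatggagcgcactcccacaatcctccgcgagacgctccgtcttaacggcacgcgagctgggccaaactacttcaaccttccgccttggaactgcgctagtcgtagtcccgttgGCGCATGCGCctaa
Ndufa12: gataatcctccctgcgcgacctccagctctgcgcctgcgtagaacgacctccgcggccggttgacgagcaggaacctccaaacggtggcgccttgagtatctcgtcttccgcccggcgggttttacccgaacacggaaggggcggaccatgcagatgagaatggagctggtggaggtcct
Ndufaf2: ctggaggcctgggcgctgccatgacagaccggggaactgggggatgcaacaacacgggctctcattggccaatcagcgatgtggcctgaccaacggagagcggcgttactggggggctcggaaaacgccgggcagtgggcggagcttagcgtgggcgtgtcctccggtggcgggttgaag

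In Ndufaf4 the motif occurred on both strands 1 base apart, at -113 and -112 from the transcript start, and in Ndufaf5 in the same overlapping form at 17 and 18 after it. The windows of Ndufa12 and Ndufaf2 held no such match. Over the 300 bases that RefSeq gives per promoter, 40 of the 49 members were matched by symbol, with 42 windows. Those not matched included Ndufa11b, Ndufa2, Ndufa4l2, Ndufaf6, Ndufb4c, Ndufb9, Ndufs1 and Ndufs6b. The NRF1 letters were in 4 of the 42 windows (9.52%; Ndufa8, Ndufa11, Ndufaf4 and Ndufaf5), against 1.75% of all 32851 promoters. The letters CCGGAAG, bound by ETS factors, were in 6 windows (14.3%), against 8.86%. The letters ATGGCGGC, bound by YY1, were in 8 windows of 7 genes (19.0%), against 2.24%. In 5 of those 7 genes the YY1 letters lay at an annotated start codon. A match is a run of letters and not a measured binding site.

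Of the 47 members tested, 42 had a log2 fold change above 0, which was so for 52.4% of all genes tested. No member passed the threshold (adjusted p under 0.05 in limma), where 0.0395% of all genes did. At an unadjusted p under 0.05, 11 members were higher in KO, against 11.5% of all genes, and 0 were lower, against 10.2%. Every KO sample was above every WT sample for 8 members (17.0%), close to the 14.5% of all genes, and the reverse held for 0 members, against 13.3%. The median log2 fold change was 0.43 for the 37 subunits and 0.76 for the 8 assembly factors, beside 0.03 for all genes tested. Fold changes are on the scale log2(FPKM + 0.5), which understates the change of low genes.

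These medians hide a split among the KO libraries. In KO replicate 1, 42 of the 47 members were above all 3 WT samples (35.9% of all genes were) and 1 was below (31.5% of all genes). In KO replicate 2, 43 were above (38.8% of all genes) and 3 below (35.3% of all genes). In KO replicate 3, 8 were above (35.2% of all genes) and 18 were below all WT samples (34.1% of all genes). The mean level of the subunits relative to WT was 0.56, 0.88 and -0.16 in KO replicates 1 to 3 on the log2 scale, and that of the assembly factors 0.86, 1.01 and 0.23. KO replicate 2 was the highest KO library for 36 members and KO replicate 3 the lowest for 43. Over all genes, KO replicate 2 was the highest for 38.8% and KO replicate 3 the lowest for 41.7%. This order is the same as that of the share of mitochondrial reads given above. Cytosolic ribosomal protein genes followed it with 15.04%, 18.97% and 10.9% of reads in KO replicates 1 to 3. In WT they took 12.8% to 15.2%. The part of either share in the result was not tested. The FPKM summed over all genes tested followed this order too, with 473510, 604510 and 356340 in KO replicates 1 to 3 and 362760 to 412280 in WT. The deposited FPKM were not scaled to the rebuilt reads of each library. The depth behind them was 0.941, 0.780 and 1.096 times those reads in KO replicates 1 to 3. In WT it was 0.995 to 1.072 times. A smaller depth gives a higher FPKM for the same reads. Each sample was therefore also rescaled to the same FPKM sum. The median of the subunits was then 0.17 and that of the assembly factors 0.50, where that of all genes was -0.20, and 37 of 47 members remained above 0, with Ndufa3, Ndufa6, Ndufa9 and Ndufb2 among those turning negative. On that scale 6 members were higher (3.83% of all genes) and 1 lower (12.9% of all genes) at an unadjusted p under 0.05, and of all genes with such a p 22.9% were higher, against 52.9% as deposited.

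**Figure D1:**
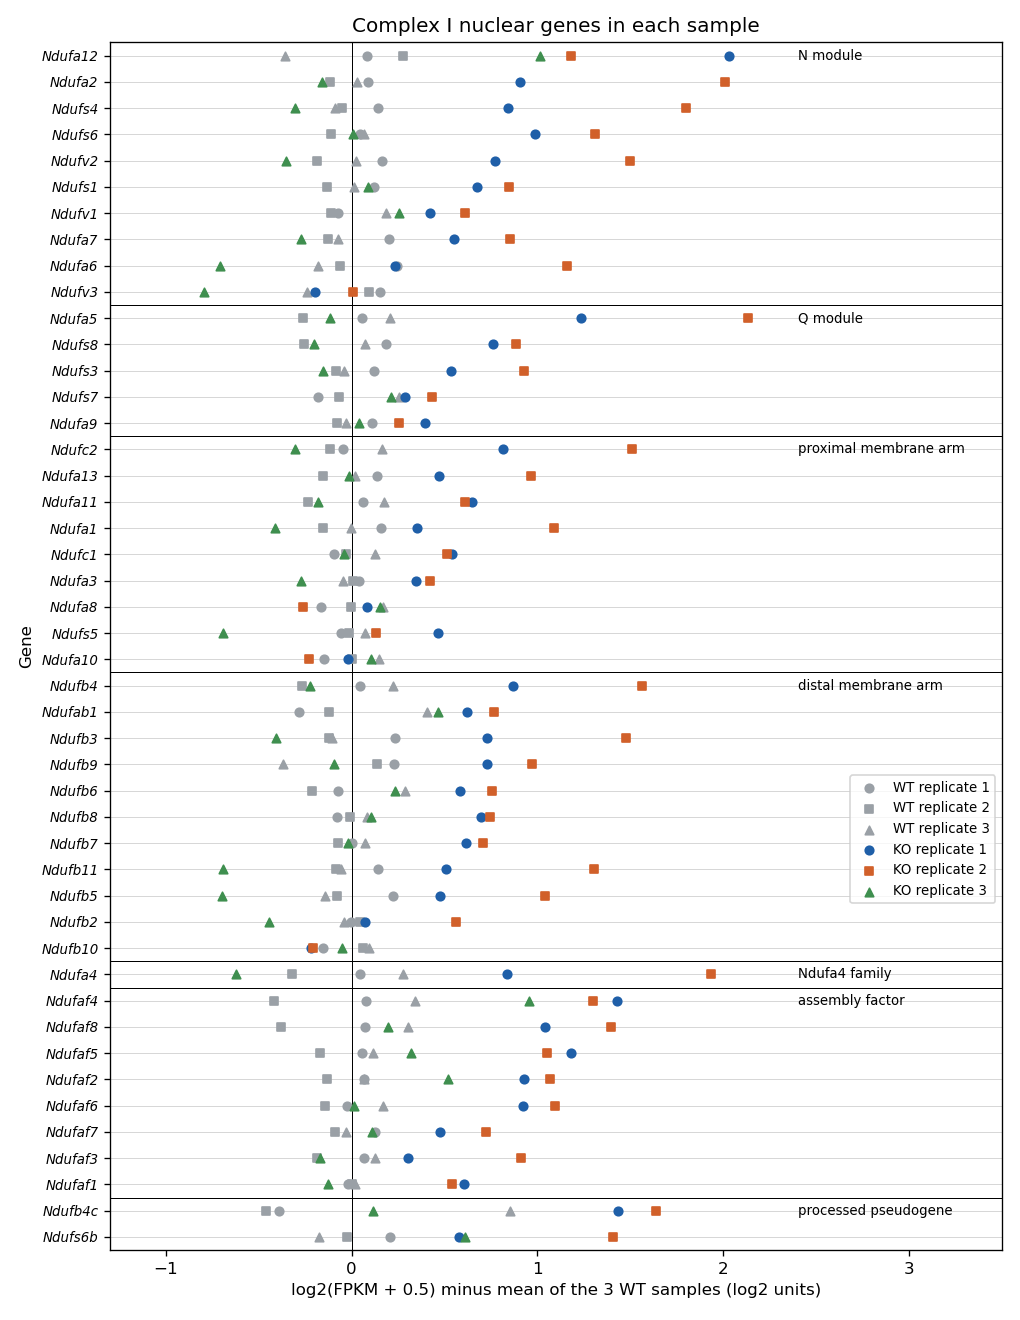
Level of the members in each sample, as log2(FPKM + 0.5) minus the mean of the 3 WT samples, grouped by module and ordered by fold change. Circles, squares and triangles are replicates 1, 2 and 3, WT in grey. KO replicates 1 and 2 lie to the right for most genes, at mean levels of 0.56 and 0.88 for the subunits, while KO replicate 3 (mean -0.16) lies among or left of the WT samples for most.

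The number of members called depended on which KO library was included. Without KO replicate 3, limma called 20 members at an adjusted p under 0.05, all higher in KO, where 8.12% of all genes were called higher, and 0 members were called lower, against 5.58%. Of the 20, 14 were subunits (Ndufa2, Ndufa5, Ndufa12, Ndufb3, Ndufb4, Ndufb7, Ndufb8, Ndufc2, Ndufs1, Ndufs3, Ndufs4, Ndufs6, Ndufs8 and Ndufv2) and 6 were assembly factors (Ndufaf1, Ndufaf2, Ndufaf4, Ndufaf5, Ndufaf6 and Ndufaf8). In that comparison 42 of 47 members had both KO samples above all WT samples, against 28.2% of all genes. For single members, the adjusted p of that fit is printed further below only where it was under 0.05. It was 0.0552 for Ndufa4, 0.0767 for Ndufv1, 0.0971 for Ndufab1, 0.117 for Ndufaf3 and 0.198 for Ndufs7, which were not called. Without KO replicate 2, the median of the subunits was 0.23 and 5 members were higher at an unadjusted p under 0.05, near the 9.92% of all genes. Limma called 0 members in that fit, against 0.0395% of all genes. There the adjusted p was 0.179 for Ndufa12, 0.185 for Ndufaf4 and 0.193 for Ndufaf2. For the other members printed below with a value without KO replicate 3, it was larger. It was 0.247 for Ndufaf5, 0.357 for Ndufaf8, 0.374 for Ndufb8 and 0.403 for Ndufs1. It was 0.580 for Ndufa2, 0.627 for Ndufaf1, 0.676 for Ndufs8, 0.707 for Ndufs3 and 0.786 for Ndufv2. Their log2 fold changes without KO replicate 2 included 0.37 for Ndufa2, 0.24 for Ndufaf1, 0.19 for Ndufs3 and 0.21 for Ndufv2. Among others, the log2 fold changes of Ndufa1, Ndufa6, Ndufb2, Ndufb5 and Ndufb11 were then below 0, and those of Ndufa8 and Ndufa10 above 0.

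**Figure D2:**
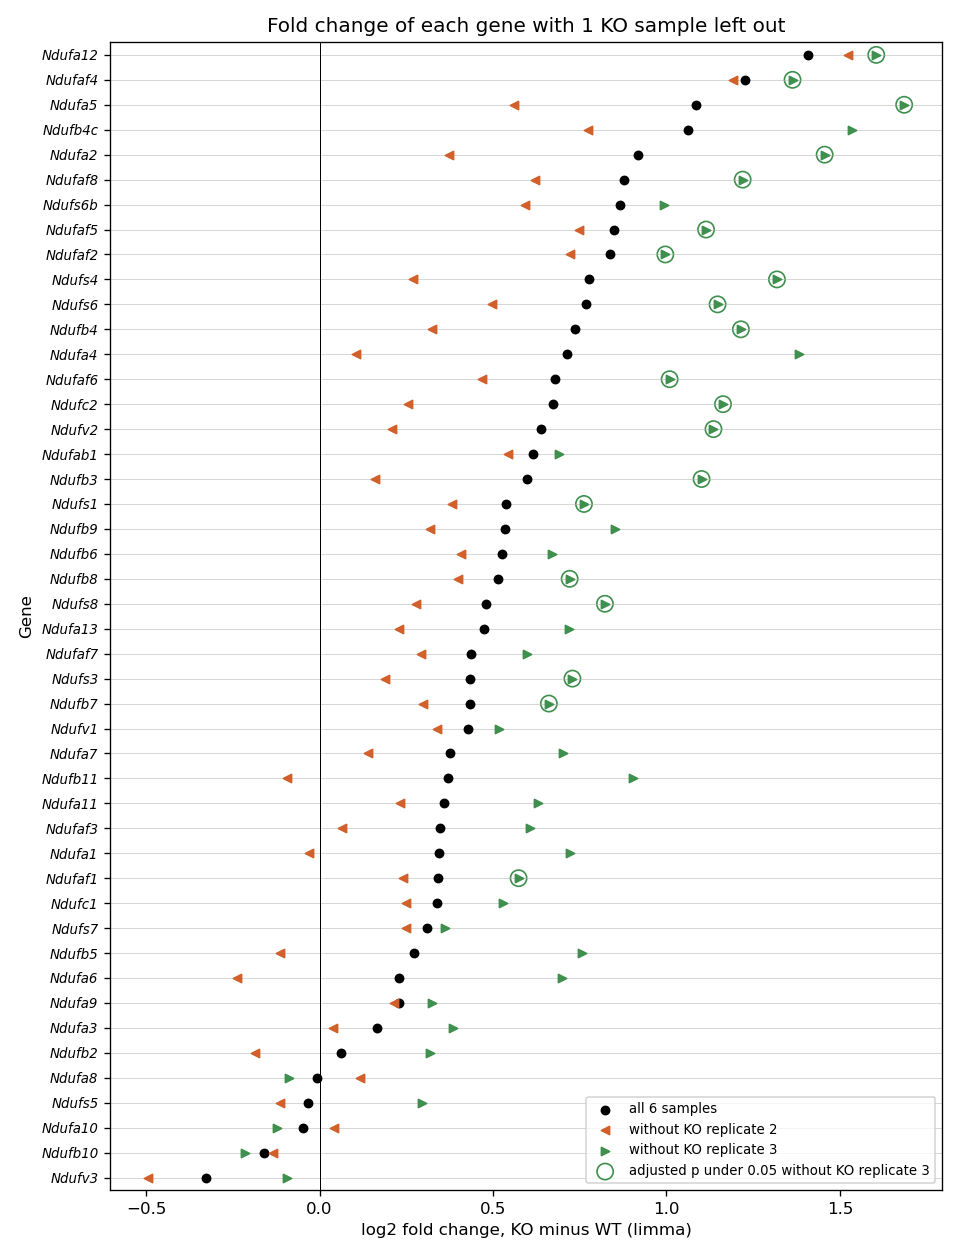
log2 fold change (KO minus WT) of the members from limma with all 6 samples (black), without KO replicate 2 (left-pointing) and without KO replicate 3 (right-pointing). Rings mark the 20 members with an adjusted p under 0.05 without KO replicate 3. Ndufa12 and Ndufaf4 lie above 1 in all 3 fits.

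Among the assembly factors, 8 of 8 fold changes were above 0 in all 6 samples, without KO replicate 2, without KO replicate 3 and after rescaling to equal FPKM sums. Ndufaf4, which acts with Ndufaf3 on the Q module, had 5.09, 3.45 and 6.20 FPKM in WT and 13.8, 12.5 and 9.74 in KO. All KO values were above all WT values, KO replicate 3 included (log2 fold change 1.23, SE 0.240, limma adjusted p = 0.0921, and 0.0348 without KO replicate 3). Its partner Ndufaf3 had 6.43, 5.31 and 6.71 FPKM in WT and 7.67, 12.0 and 5.37 in KO, with overlapping groups (log2 fold change 0.35, SE 0.282, adjusted p = 0.504).

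Ndufaf2 is a paralog of the subunit Ndufa12 that holds its place on the growing complex until Ndufa12 takes over late in assembly. Ndufaf2 had 3.77, 3.21 and 3.77 FPKM in WT and 7.25, 8.03 and 5.34 in KO (log2 fold change 0.84, SE 0.192, adjusted p = 0.107, and 0.0344 without KO replicate 3). Ndufa12 had 20.4, 23.4 and 14.9 FPKM in WT and 80.0, 44.2 and 39.4 in KO. Its fold change of 1.41 on the log2 scale (SE 0.308, adjusted p = 0.102, and 0.0350 without KO replicate 3) was the largest of the 47 members. In Ndufa12 the highest library was KO replicate 1, and not KO replicate 2 as in most subunits. The groups did not overlap for either gene of this pair.

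Ndufaf5, an enzyme that modifies an arginine of the core subunit Ndufs7, had 6.21, 5.24 and 6.49 FPKM in WT and 14.1, 12.9 and 7.56 in KO (log2 fold change 0.85, SE 0.251, adjusted p = 0.137, and 0.0344 without KO replicate 3). Every KO value lay above WT, with KO replicate 3 by the smallest margin. Ndufaf8, a small partner that stabilises Ndufaf5, had 23.1, 16.8 and 27.2 FPKM in WT and 45.8, 58.7 and 25.2 in KO (log2 fold change 0.88, SE 0.337, adjusted p = 0.198, and 0.0364 without KO replicate 3). KO replicate 3 lay between the WT samples here. Ndufaf1, which belongs to the assembly complex of the membrane arm, had the smallest fold change of the factors: 14.0, 14.1 and 14.3 FPKM in WT and 21.8, 20.8 and 12.9 in KO (0.34, SE 0.221, adjusted p = 0.403, and 0.0412 without KO replicate 3). Its WT samples had a coefficient of variation of 1.23%, and KO replicate 3 lay below them. Ndufaf6, needed early in assembly, and Ndufaf7, a methyltransferase, had log2 fold changes of 0.68 (SE 0.294, adjusted p = 0.237) and 0.44 (SE 0.195, adjusted p = 0.249), and KO replicate 3 lay within the WT range of each.

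**Figure D3:**
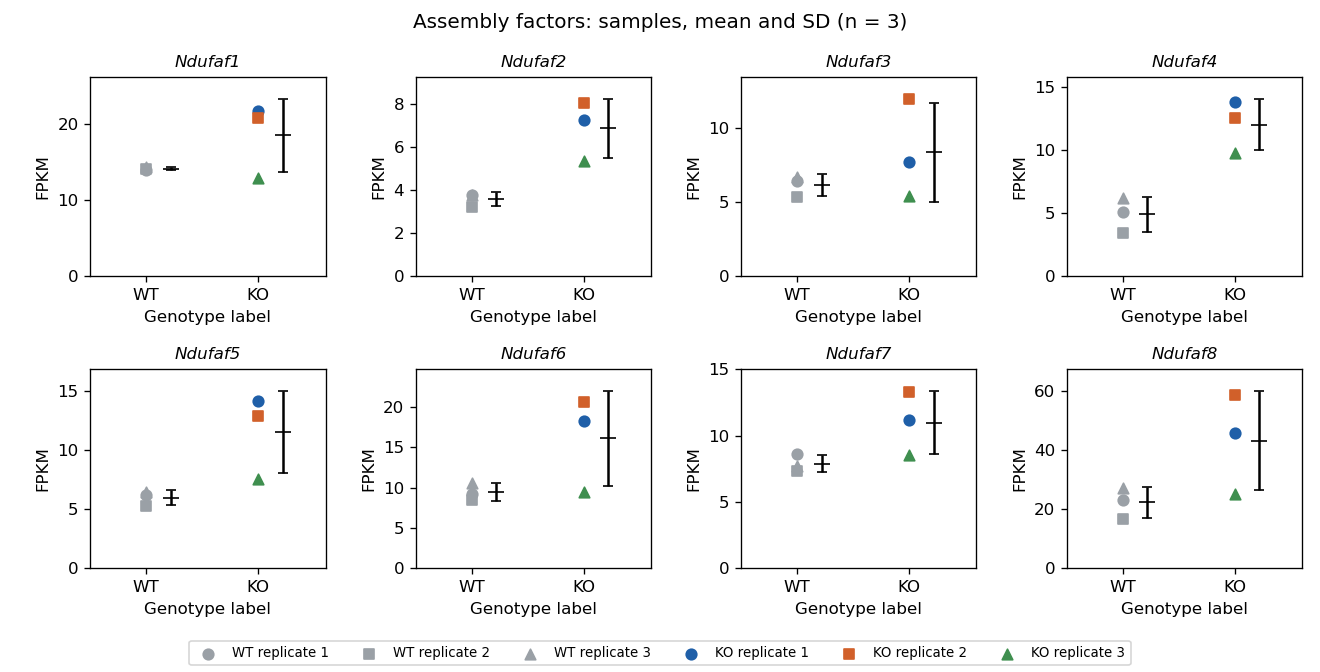
FPKM of the 8 assembly factors in each sample by genotype label, with black bars for the mean and SD of 3 samples. Ndufaf2, Ndufaf4 and Ndufaf5 have every KO sample above every WT sample, whereas KO replicate 3 (triangle) lies within or below the WT samples for the other 5.

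Of the 13 listed assembly factors that do not bear the Nduf name, 12 were matched and tested. Their median log2 fold change was 0.28 with 10 of 12 above 0. At an unadjusted p under 0.05, 2 were higher and 1 was lower in KO, near the 11.5% and 10.2% of all genes. Timmdc1, a factor of the membrane arm near its junction with the Q module, had 8.49, 8.03 and 9.64 FPKM in WT and 13.1, 16.5 and 11.5 in KO (0.61, SE 0.181, adjusted p = 0.136). Acad9, a flavoprotein that works beside Ndufaf1, had 3.79, 4.04 and 4.12 FPKM in WT and 5.61, 5.34 and 5.04 in KO (0.38, SE 0.144, adjusted p = 0.195). Dmac2 went the other way, with 12.4, 12.9 and 11.9 FPKM in WT and 7.80, 8.63 and 6.70 in KO (-0.66, SE 0.154, adjusted p = 0.107). For these 3 genes the groups did not overlap. Of all genes, 14.5% had every KO sample above WT and 13.3% every KO sample below. Tmem126b and Ecsit, partners of Ndufaf1, had fold changes of 0.005 (SE 0.478) and 0.23 (SE 0.194).

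The 7 nuclear core subunits, which carry the flavin, the iron-sulfur clusters and the ubiquinone site, all had fold changes above 0 in the 6 samples. In the N module, Ndufv1, which binds NADH and the flavin, had 41.9, 40.8 and 50.1 FPKM in WT and 59.3, 67.6 and 52.6 in KO. It was the 1 core subunit of the 7 with every KO sample above WT (log2 fold change 0.43, SE 0.174, adjusted p = 0.216). This count is near the 14.5% of all genes. Ndufs1, the largest subunit and the carrier of several clusters, had 14.2, 11.9 and 13.2 FPKM in WT and 21.2, 23.9 and 13.9 in KO (0.54, SE 0.226, adjusted p = 0.227, and 0.0360 without KO replicate 3). Ndufv2, an iron-sulfur protein beside Ndufv1, had 89.8, 70.4 and 81.3 FPKM in WT and 137.0, 227.5 and 62.5 in KO. Its KO values ran from below to well above the WT range (0.64, SE 0.441, adjusted p = 0.432, and 0.0415 without KO replicate 3).

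In the Q module, Ndufs7, which holds the last cluster before ubiquinone, had 29.7, 32.2 and 40.4 FPKM in WT and 41.4, 45.8 and 39.2 in KO (log2 fold change 0.31, SE 0.175, adjusted p = 0.341). Ndufs8, another iron-sulfur protein of this module, had 102.9, 75.7 and 95.4 FPKM in WT and 153.7, 167.8 and 78.7 in KO (0.48, SE 0.316, adjusted p = 0.410, and 0.0415 without KO replicate 3). KO replicate 3 lay within the WT range for Ndufs7 and Ndufs8.

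Ndufs3, another core subunit of the Q module, is a neighbour of the targeted gene: on mm10 chromosome 2 it lies at 90894634 to 90904827 on the minus strand, 3888 bases from Ptpmt1 on the same strand. Ndufs3 had 38.2, 33.1 and 34.1 FPKM in WT and 51.0, 67.1 and 31.5 in KO (0.43, SE 0.279, adjusted p = 0.399, and 0.0448 without KO replicate 3). Its KO values were high in replicates 1 and 2 and below WT in replicate 3, the order seen in most subunits. The gene overlaps Kbtbd4 on the opposite strand, and the strand setting of the counting is not given in the sources used here.

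**Figure D4:**
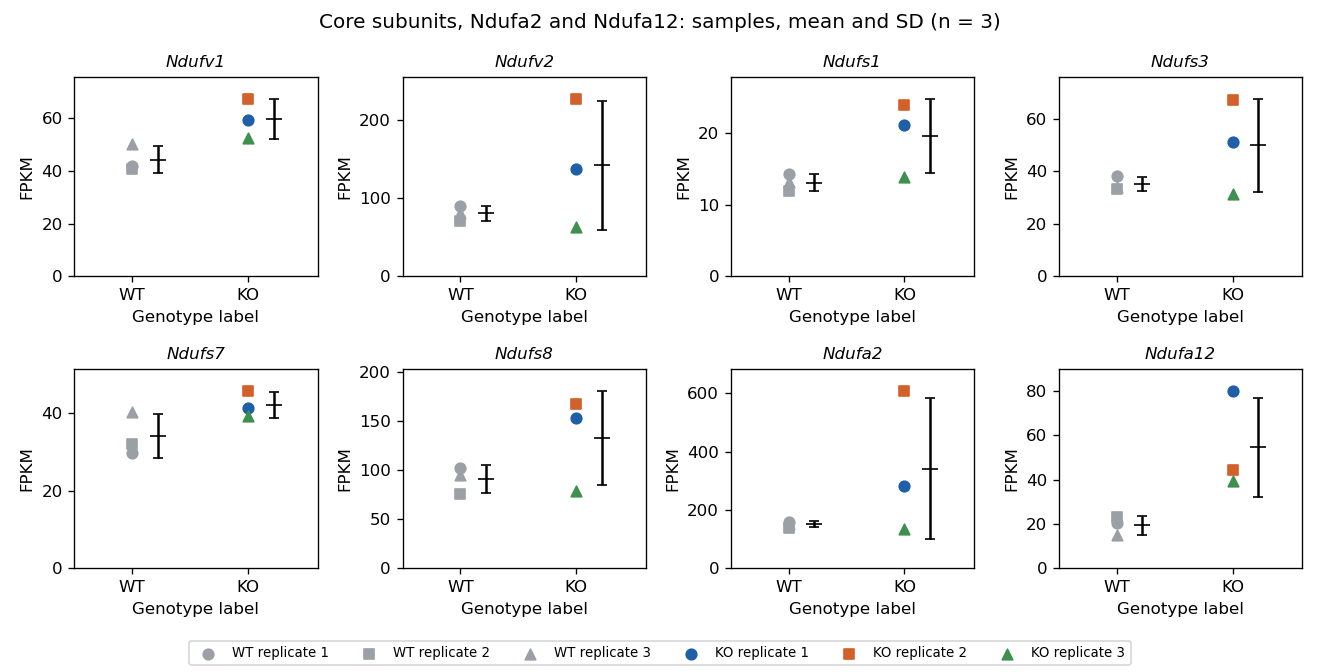
FPKM of 6 nuclear core subunits and of Ndufa2 and Ndufa12 in each sample by genotype label, with black bars for the mean and SD of 3 samples. Ndufa12 and Ndufv1 have every KO sample above WT, and KO replicate 3 (triangle) lies within or below the WT samples for the others.

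The 30 accessory subunits tested had log2 fold changes from -0.33 (Ndufv3) to 1.41 (Ndufa12). By module, with core and accessory subunits together, the median log2 fold change was 0.59 in the N module (9 of 10 above 0), 0.37 in the Q module (6 of 6), 0.34 in the proximal membrane arm (6 of 9) and 0.52 in the distal membrane arm (10 of 11). The differences between modules were not tested. Ndufb8 and Ndufab1 were the accessory subunits of the distal membrane arm with every KO sample above WT (2 of 11), near the 14.5% of all genes. Ndufab1, which is also the mitochondrial acyl carrier protein, had 4.51, 5.10 and 7.58 FPKM in WT and 8.86, 9.85 and 7.92 in KO (0.62, SE 0.217, adjusted p = 0.174), with WT replicate 3 close to KO replicate 3. Ndufb8 had 20.9, 22.02 and 23.5 FPKM in WT and 36.1, 37.4 and 23.8 in KO (0.52, SE 0.209, adjusted p = 0.214, and 0.0348 without KO replicate 3). Ndufb6, of the same arm, had an unadjusted p of 0.0464 (0.52, SE 0.217, adjusted p = 0.222) and overlapping groups.

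Over all 6 samples, the members of highest mean FPKM were Ndufa2 and Ndufa4, while the highest WT mean was that of Ndufb11, at 173.7 FPKM. Ndufa4 was named as a complex I subunit and is now known as a subunit of cytochrome c oxidase. It had 147.8, 114.5 and 173.9 FPKM in WT and 255.8, 548.4 and 92.8 in KO, so that KO replicate 2 was the highest and KO replicate 3 the lowest of all 6 libraries (0.71, SE 0.598, adjusted p = 0.514). Ndufa2, an N module subunit with a thioredoxin-like fold, had 160.5, 139.1 and 153.7 FPKM in WT and 282.8, 608.1 and 134.8 in KO (0.92, SE 0.503, adjusted p = 0.329, and 0.0426 without KO replicate 3). In both genes KO replicate 2 was far above KO replicate 1. Ndufa5 of the Q module showed the same wide spread, from 0.915 times the WT mean in KO replicate 3 to 2.35 and 4.38 times in KO replicates 1 and 2. The longest annotated coding sequences of Ndufa4, Ndufa2 and Ndufa5 are 246, 297 and 348 bases, below the median of 447 bases for the subunits. Ndufa1 and Ndufc1, at 210 and 228 bases, are shorter and had a narrower spread. Ndufa1 was at 1.27, 2.13 and 0.746 times the WT mean in KO replicates 1 to 3, and Ndufc1 at 1.47, 1.44 and 0.968 times. Across the 37 subunits, Spearman's rho between longest annotated coding length and the level relative to WT was -0.27, -0.36 and 0.30 in KO replicates 1 to 3, and across all genes with a coding length it was -0.25, -0.37 and 0.06. These are descriptions across genes that share libraries.

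At the other end, 5 subunits had fold changes below 0, none at an unadjusted p under 0.05: Ndufv3 (-0.33, SE 0.245), Ndufb10 (-0.16, SE 0.158), Ndufa10 (-0.05, SE 0.165), Ndufs5 (-0.03, SE 0.296) and Ndufa8 (-0.01, SE 0.187). Without WT replicate 3 and with array weights, the fold changes of Ndufa10, Ndufs5 and Ndufa8 were above 0, as was that of Ndufs5 without KO replicate 3. Ndufv3, an accessory subunit of the N module, had 46.9, 44.96 and 35.6 FPKM in WT and 36.7, 42.4 and 24.1 in KO. In limma it was the 1 member lower at an unadjusted p under 0.05 after rescaling to equal FPKM sums (-0.60, adjusted p = 0.203) or to equal read totals (-0.47, adjusted p = 0.251). Ndufb10, Ndufa10 and Ndufa8 also lacked the excess in KO replicate 2, where they were at 0.86, 0.85 and 0.83 times the WT mean.

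The tested subunit of lowest mean level was Ndufb2, at 1.24, 1.30 and 1.19 FPKM in WT and 1.33, 2.07 and 0.778 in KO (0.06, SE 0.294, adjusted p = 0.918). It overlaps 3 annotated genes, among them Gm42420 on its own strand, so its level is uncertain. In all, 19 members overlap an annotated gene on the opposite strand and 7 on the same strand, among them Ndufa13, Ndufb8, Ndufb9 and Ndufc2. Ndufaf2, Ndufab1, Ndufs1 and Ndufv2 are among those with an opposite-strand neighbour, and their values carry the same uncertainty. The processed pseudogene Ndufs6b, the second lowest of the 47 tested members by mean FPKM, had 2.28, 1.87 and 1.64 FPKM in WT and 3.10, 5.91 and 3.18 in KO (0.86, SE 0.270, limma adjusted p = 0.150). The groups did not overlap. Ndufb4c, another processed pseudogene, averaged 2.02 ± 1.41 FPKM in the WT group, against an average of 4.78 ± 2.46 for KO (SD, n = 3 each). The fewest reads behind any tested member in a sample were 7, and reads of these pseudogenes can be shared with the genes Ndufs6 and Ndufb4.

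The same values are given for other nuclear genes of mitochondria. The 38 tested genes of complexes II to V had a median log2 fold change of 0.40 and mean levels of 0.55, 0.88 and -0.19 in KO replicates 1 to 3. The 77 mitochondrial ribosomal proteins had a median of 0.53 and mean levels of 0.63, 0.87 and 0.17. In KO replicate 3, 4 of 37 subunits (10.8%), 3 of 8 assembly factors (37.5%), 7 of 38 genes of complexes II to V (18.4%) and 43 of 77 ribosomal protein genes (55.8%) were above all WT samples, where 35.2% of all genes were. Differences between these lists were not tested. The 7 complex I subunits made from mitochondrial DNA had mean levels of 0.63, 1.57 and -0.43, with 3 of 7 fold changes above 0. Without mt-Nd3 the means of the other 6 were 0.002, 1.001 and -0.998. Of the 7, mt-Nd3, at 5.43 to 7.69 FPKM in WT and 52.5 to 212.2 in KO, was the 1 with groups that did not overlap. Of all genes, 14.5% had every KO sample above WT. The values of mt-Nd3 are weighed next. The mt-Nd3 values rest on 29 to 47 reads in WT and 330 to 969 in KO, whereas mt-Nd1 had 57040 to 72338 reads in WT. Why mt-Nd3 had so few reads was not tested, and its level and change are uncertain.

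**Figure D5:**
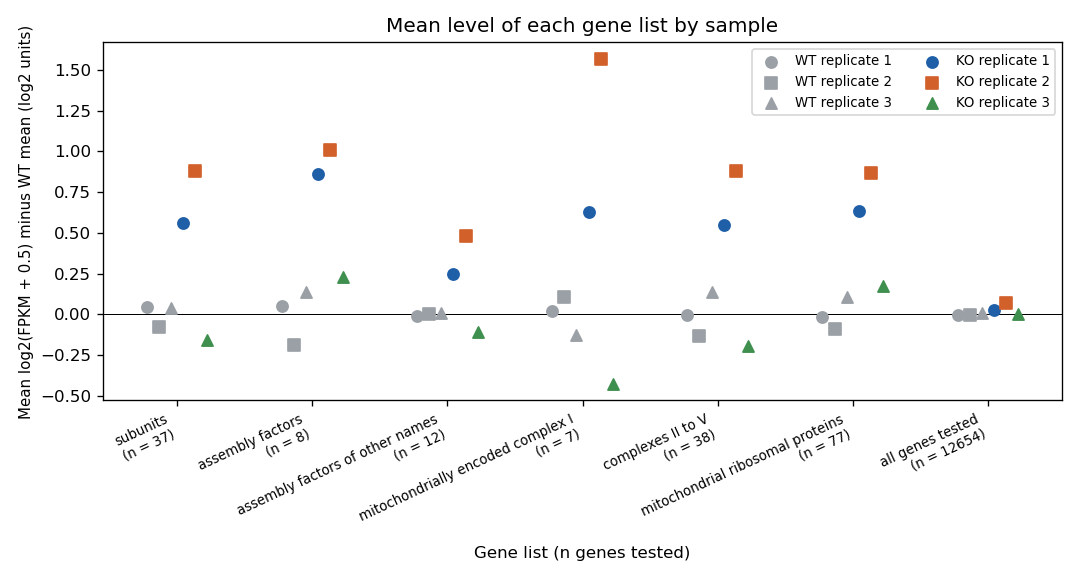
Mean of log2(FPKM + 0.5) minus the WT mean over the genes of each list, 1 point per sample (circles, squares and triangles for replicates 1, 2 and 3, WT in grey). The subunits stand at 0.56, 0.88 and -0.16 in KO replicates 1 to 3 and the assembly factors at 0.86, 1.01 and 0.23, while all genes tested lie near 0.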

How the data were processed

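The authors deposited 1 FPKM value per gene and sample, with a gene length in bases. The build was mm10, and featureCounts 1.5.0-p3, HISAT2 2.0.5, DESeq2 and Trim Galore are listed without a role, per the submitters' processing notes. In each sample, at least 99.99% of the products of FPKM and length were whole multiples of the value of a single read (tolerance 0.05), which gave rebuilt reads. Of the gene identifiers, 54409 matched GENCODE M21 and 123 did not.

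From the deposited FPKM, log2(FPKM + 0.5) was fitted for the 12654 genes with a mean of at least 0.5 FPKM in limma 3.58.1 (R 4.3.3; 2-sided, genotype alone in the model, with a mean-variance trend). Benjamini-Hochberg adjustment covered all genes tested. Tested on simulated data (12273 genes, 3 against 3), limma recovered 15 of 100 genes changed 2-fold and 73 of 100 changed 4-fold, and called 11 unchanged genes. The simulation drew each gene independently and scaled by read totals. It had no shift shared by the genes of a library, so these rates do not cover the split among the KO libraries. One tested member is counted but not reported here by name or value. Sample values were given for other core subunits, Ndufaf genes at an unadjusted p under 0.05 or at either end of the fold changes, the 8 members of smallest p, the highest and lowest by FPKM, and the Ndufa4 genes. Ndufaf3, Ndufs6, Ndufb4, Ndufa5 and other members with values outside that rule were chosen after their values were seen. Members and lists were chosen with earlier results of these data known. Promoters are from RefSeq (GRCm38.p6). Alternatives covered pseudocount, filter, scaling, variance model, sample weights, replicate block, limma-voom on rebuilt reads and each sample left out. Tables were handled in Python 3.11.15 with pandas 2.3.3, permutation tests with scipy 1.17.1.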

Additional observations from a re-analysis of the deposited data

How the results depend on the processing

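With all 6 samples and limma, 0 members were called and 11 were higher at an unadjusted p under 0.05. Leaving out each sample in turn gave 0 to 20 called members, 5 to 37 higher at an unadjusted p under 0.05, and 8 to 42 with every KO sample above WT. Each upper end came from leaving out KO replicate 3, where the shares of all genes were 13.7% called, 19.5% higher at that unadjusted p and 28.2% above WT in every KO sample. The count of 5 came from leaving out WT replicate 1, WT replicate 2, KO replicate 1 or KO replicate 2, where 6.69%, 5.65%, 6.76% and 9.92% of all genes were higher. The count of 8 came from leaving out WT replicate 2, KO replicate 1 or KO replicate 2, where 16.0%, 16.4% and 19.5% of all genes were above WT. Without WT replicate 3, 13 members were above WT in every KO sample, against 22.2% of all genes. The subunit median ranged from 0.23 (without KO replicate 2) to 0.72 (without KO replicate 3) and that of the assembly factors from 0.54 to 1.003.

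Rescaling to equal FPKM sums, added after seeing the data, gave 6 higher members and 1 lower member at that unadjusted p. Rescaling to equal read totals gave 7 and 1, beside 6.70% and 11.7% of all genes, where 36.5% of all genes with such a p were higher. It put the subunit median at 0.29 and that of the assembly factors at 0.62, where that of all genes was -0.10. Without the variance trend 7 were higher (10.9% of all genes), and with the replicate block 7 were higher (12.4% of all genes). Same-numbered samples correlated at 0.13, 0.07 and 0.33 in their deviations from group means, and not every sample correlated best with its own number, so the replicates were treated as sharing only a number. With array weights, limma called 39 members, with 40 higher members and 1 lower member at that unadjusted p. It called 53.0% of all genes, and 31.3% were higher and 27.8% lower at that p. That fit gave KO replicate 1 a weight of 9.10 and KO replicate 3 a weight of 0.192, so it rests mainly on 1 KO library. Ptpmt1 had a log2 fold change of -1.50 (adjusted p = 0.000362) with array weights, and -1.34 to -1.11 with each sample left out, of which only the fit without KO replicate 3 passed (-1.32, adjusted p = 0.0344). The other alternatives (pseudocounts of 0.1 and 1, both filters, median-of-ratios scaling and limma-voom) left these counts within 1.5 times their value, though limma-voom gave Ndufb2 a fold change below 0. The causes of these shifts were not tested.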
